A study of Homo sapiens with 15 samples.

Results

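HCT116 cells that received 15 µM 5-FU for 24 h were compared with untreated HCT116 cells, across all 730 endogenous genes of a NanoString PanCancer Pathways panel. The comparison takes 3 samples of 5-FU and 3 of control out of 15 samples in the series, and all 730 genes are members. HCT116 is an established human colorectal carcinoma line. The series also holds 3 samples each of 40 µM TQ (thymoquinone), of Combi (35 µM TQ with 35 µM 5-FU) and of 35 µM SARB, a hybrid of both compounds, all after 24 h. Of these, TQ and SARB ran together with 5-FU, and TQ alone is compared with it below. The samples are described as biological replicates, and nothing more is stated on how separate the cultures were.

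5-FU (5-fluorouracil) is a pyrimidine analog. In the cell it is converted to nucleotides that inhibit thymidylate synthase, the enzyme that supplies thymidylate for DNA synthesis, and to nucleotides that are built into RNA and DNA. The resulting replication stress and DNA damage activate the p53 pathway. Its targets include genes for cell cycle arrest, DNA repair and cell death, together with MDM2, the ubiquitin ligase of its feedback loop. Cells that slow down in S phase or stop before mitosis also change the mRNAs that are made in only 1 stage of the cycle, such as cyclins and the replication-dependent histones.

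In this assay a pair of probes captures each transcript and its color barcode is counted without amplification. Values are given as scaled counts, which are raw counts brought to a common geometric mean over the panel's 40 housekeeping genes. The raw counts of the endogenous genes summed to 220040 to 258006 in control and 238738 to 261686 in 5-FU. To be called, a gene needed a fold change of at least 1.5 and a p of at most 0.05 in edgeR's quasi-likelihood test after Benjamini-Hochberg adjustment over all 730 genes. Adjusted p-values below are from this test, and log2 fold changes are 5-FU over control. A gene was taken as above background in a sample when its count exceeded the mean plus 2 SD of the 8 negative probes.

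The 6 samples did not share 1 cartridge. Control replicate 1 and all 5-FU samples were on the first cartridge, and control replicates 2 and 3 were on the second. The background lay at 39.9 and 41.9 scaled counts in the control samples of the second cartridge, and at 13.8 to 23.4 in the 4 samples of the first, so low genes had a higher floor in control. The 253 genes with a mean of under 30 scaled counts had a median log2 fold change of -0.55, which was -0.12 with the cartridge as a block, a fit that sets 5-FU against control replicate 1 alone. Values within the first cartridge are from that fit and are given below where the call was lost there or the log2 fold change moved by more than 1.5 times. Among the genes named below, CDC14A, FANCG and PHF6 were called in it but not when the samples of the first cartridge were fitted alone. The part of the cartridge in those results was not tested further.

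In total, 148 of 730 genes (20.3%) were called, of which 74 (10.1%) rose and 74 (10.1%) fell in 5-FU. The counts of each list below are to be read against this 10.1% called each way. The samples of both groups did not overlap in 322 genes (44.1%), of which 119 (16.3%) were higher and 203 (27.8%) lower. Among 492 genes above background in all 3 samples of at least 1 group, 73 (14.8%) were called higher and 70 (14.2%) lower. Relative to the housekeeping genes the 730 genes had a median log2 fold change of -0.27, and TMM, a normalization to the bulk of the genes, moved it to -0.07. TMM gave 104 genes higher and 41 lower, and DESeq2 gave 102 and 35, and TMM kept all 74 of the higher calls and 39 of the lower. Of the 74 higher genes, 47 were called in each of 16 alternatives, leaving aside a scaling to the positive control probes, against 21 of the 74 lower genes. That scaling, which is not among the 16, kept the call of only 4 higher genes and 1 lower gene. The largest changes are shown in the plot of the 24 leading genes.

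**Figure D1:**
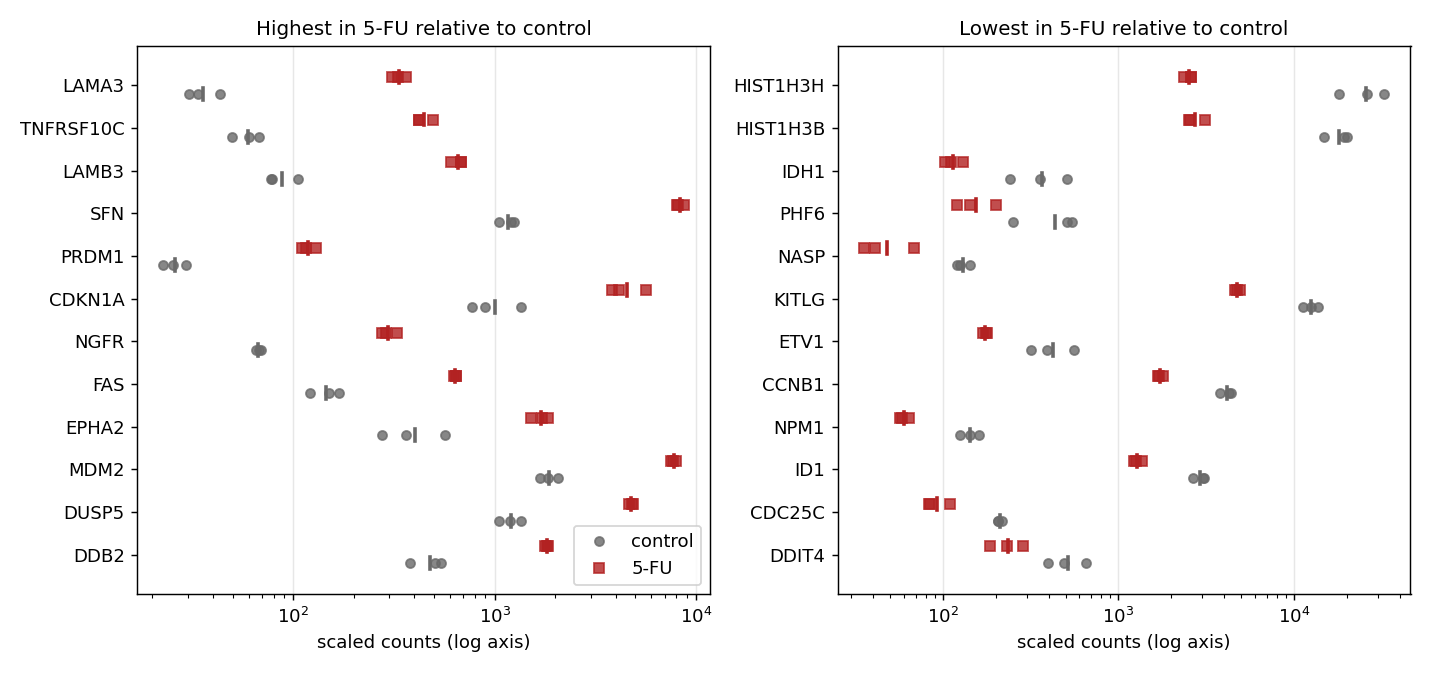
Scaled counts (log axis) of the 12 genes with the largest rise (left) and the 12 with the largest fall (right) among called genes with at least 50 raw counts in the higher group and no overlap between groups. Circles are the 3 control samples, squares the 3 5-FU samples and vertical bars the group means, and in each gene every square lies on the same side of every circle.

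Most p53 targets on the panel rose. The target lists were drawn up with earlier results of these data known. The authors had already named CDKN1A, SFN, GADD45A, FAS, BAX, PML and EPHA2 as p53 targets raised by 5-FU. The counts below are therefore a description and not a test of the pathway. Of 6 targets on the panel that act in arrest and repair, 4 were called higher and 1 lower, with a median log2 fold change of 1.50 against -0.27 over all genes. SFN, the 14-3-3 sigma protein that holds cells before mitosis, stood at 1205, 1055 and 1250 scaled counts in control replicates 1 to 3, and at 8030, 8137 and 8746 in 5-FU. CDKN1A, the CDK inhibitor p21, stood at 768, 896 and 1346 in control and at 3842, 4160 and 5625 in 5-FU. DDB2, which recognizes ultraviolet damage for nucleotide excision repair, stood at 508, 378 and 541 in control and at 1780, 1833 and 1826 in 5-FU. In these 3 genes the lowest 5-FU sample lay far above the highest control sample, and the folds were 7.10, 4.53 and 3.82. GADD45A, a stress protein that acts in arrest, rose 2.08-fold (log2 fold change 1.06, standard error 0.13, adjusted p = 3.08e-06). PCNA, the sliding clamp of DNA polymerases, was at 694 ± 78.2 scaled counts in control and 897 ± 199 in 5-FU (SD, n = 3), its groups overlapped, and it was not called (adjusted p = 0.11 from edgeR). The exception was FANCC, a subunit of the Fanconi anemia core complex, with a log2 fold change of -0.69, and its call was lost within the first cartridge (-0.55) and after TMM (-0.50).

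The targets in feedback and other roles moved alike, with 5 of 6 called higher, none lower, and a median of 1.57. MDM2 was at 1679, 1852 and 2062 scaled counts in control and at 7718, 7552 and 7957 in 5-FU, which is 4.15-fold higher (log2 fold change 2.05, standard error 0.11, adjusted p = 2.99e-12). The 3 samples of each group were close together and far from the other group. EPHA2, an ephrin receptor tyrosine kinase, was at 567, 275 and 361 in control and at 1523, 1715 and 1842 in 5-FU. Its control values varied more than its 5-FU values without reaching them, and the fold was 4.23. NOTCH1, a receptor of the Notch pathway, rose 3.38-fold, PML, the scaffold of nuclear bodies, rose 2.61-fold, and THBS1, an inhibitor of angiogenesis, rose 2.48-fold. IGFBP3, which binds insulin-like growth factors, was the member not called.

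In the list of 9 genes of the p53 pathway upstream of the targets, none was called higher and 2 were called lower, with a median of -0.24, close to that of all genes. The lower ones were the checkpoint kinases ATR (-0.79), which senses stalled replication forks, and CHEK1 (-0.69), which acts after ATR. ATR lost its call within the first cartridge (-0.53), and CHEK1 lost it after TMM (-0.50). The other 7 were not called.

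Of 10 death receptors and ligands, 6 were called higher and none lower (median 1.05), and the 6 were the receptors above background in all samples of a group. TNFRSF10C, a decoy receptor for TRAIL that lacks a death domain, was at 67.5, 49.9 and 60.5 scaled counts in control and at 493, 420.4 and 419.7 in 5-FU. FAS, the receptor of FAS ligand, was at 121, 149.7 and 168 in control and at 629, 639.9 and 645 in 5-FU. NGFR, the low-affinity neurotrophin receptor, was at 69.2, 65.0 and 67.2 in control and at 288, 326 and 277 in 5-FU. Each of these 3 genes was more than 4-fold higher with no overlap, at 7.52, 4.35 and 4.42-fold. The decoy receptor TNFRSF10D rose 2.41-fold and the signaling TRAIL receptors TNFRSF10A and TNFRSF10B rose 2.36-fold and 1.82-fold. The ligand TNFSF10 (TRAIL) stayed near background, at 13.9 ± 5.00 scaled counts in control and 5.75 ± 4.32 in 5-FU (SD, n = 3).

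In the BCL2 family, 2 of 7 genes were called higher and none lower (median 0.26). BAX, which permeabilizes the outer mitochondrial membrane, was at 572, 723 and 664 scaled counts in control and at 1287, 1340 and 1603 in 5-FU, which is 2.16-fold higher. BCL2L1, which codes for the anti-apoptotic BCL-XL, was at 1268, 1087 and 1264 in control and at 2092, 2203 and 2356 in 5-FU, which is 1.84-fold higher. A pro-apoptotic and an anti-apoptotic member thus rose without overlap between groups. BCL2 (log2 fold change 0.53) was not called. Among 10 caspases and execution genes, 1 was called higher and none lower, a share near the 10.1% called higher among all genes. It was the calpain CAPN2, 2.04-fold higher, and its log2 fold change was 1.03 with all controls and 0.63 within the first cartridge.

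**Figure D2:**
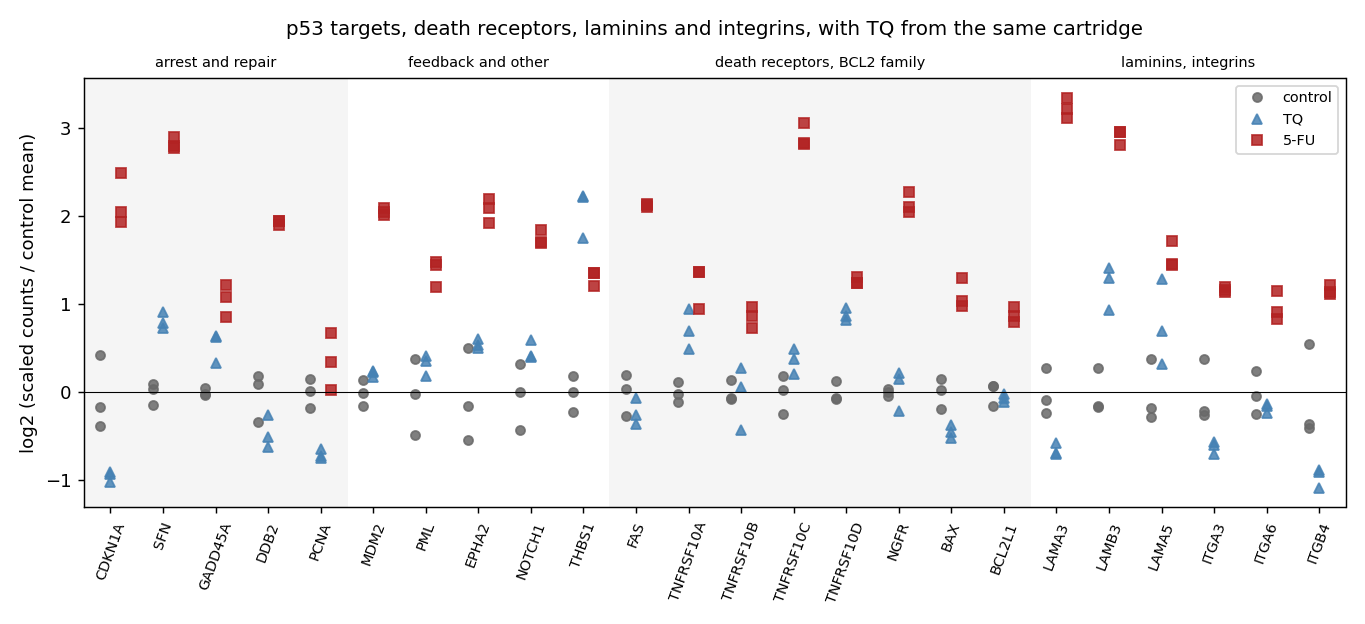
Log2 of scaled counts over the control mean for p53 targets, death receptors, BCL2 family genes, laminins and integrins. Circles are control, triangles TQ and squares 5-FU, with 3 samples each, and the 5-FU samples lie above all control samples in every gene shown but PCNA.

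Cell cycle genes were called in both directions. Of 10 cyclins, 4 were called higher and 2 lower (median -0.30), and the higher ones were D-type and E-type cyclins. CCNE2 was at 304, 441 and 437 scaled counts in control and at 670.4, 702 and 641 in 5-FU, and CCNE1 rose 1.56-fold. CCNE1 was not called without control replicate 1. Both code for E-type cyclins, which drive the entry to S phase with CDK2. Of the D-type cyclins, CCND3 rose 1.81-fold and CCND1 1.75-fold, but CCND1 was at 2288 in control replicate 1 against 1388 and 1435 in the others. Within the first cartridge CCND1 was no longer called (0.38).

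CCNB1, the mitotic cyclin B1, was at 4270, 4383 and 3770 scaled counts in control and at 1785, 1715 and 1673 in 5-FU. CCNA2, the cyclin of S phase and G2, was at 2290, 2916 and 2316 in control and at 1412, 1348 and 1376 in 5-FU. Both fell without overlap, 2.40-fold and 1.82-fold. Both calls held in all 16 alternatives, which leave aside the scaling to the positive control probes. None of 9 CDKs and CDK inhibitors outside the p53 targets was called, and CDK4 (-0.07), CDK2 (0.16) and CDK6 (0.28) were near the control level.

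Genes of mitosis and cohesion gave 1 call higher and 4 lower of 14 (median -0.44). CDC25C, the phosphatase that activates the mitotic CDK, was at 208, 218 and 207 scaled counts in control and at 84.3, 83.8 and 109.8 in 5-FU. TTK, the spindle checkpoint kinase MPS1, was at 1373, 1466 and 1272 in control and at 729, 738 and 782 in 5-FU. Both fell, 2.28-fold and 1.83-fold, and their control samples lay close together. PTTG2, a copy of the securin gene whose probe may also capture that gene, fell 1.72-fold. CDC14A, a phosphatase of mitotic exit, fell 1.67-fold, and its call was lost after TMM (-0.55). PKMYT1, which inhibits the mitotic CDK, was called higher at 1.62-fold, but not within the first cartridge (0.47).

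Of 21 genes of G1/S control and replication, 2 were called higher and 4 lower (median -0.31). MCM5, MCM7 and MCM4 are subunits of the replicative helicase, and POLE2 is a subunit of DNA polymerase epsilon. MCM5 was at 367, 405 and 385 scaled counts in control and at 219, 208 and 214 in 5-FU, and POLE2 at 330.3, 395 and 329 against 178, 230.2 and 207. The falls were 1.81-fold for MCM5, 1.72-fold for POLE2, 1.66-fold for MCM7 and 1.52-fold for MCM4. POLE2 was not called with DESeq2, MCM7 and MCM4 were not called after TMM (-0.54 and -0.41), nor was MCM4 within the first cartridge (-0.45). The loading factor CDC6 (-0.25) was not called, nor was the helicase subunit MCM2 (-0.31), named after its values were seen. CDC25A, the phosphatase of the G1/S transition, rose 1.57-fold, opposite to CDC25C. MYC, a driver of growth and replication genes, was at 1733 ± 202 scaled counts in control and 1435 ± 67.4 in 5-FU (SD, n = 3) and was not called (adjusted p = 0.108 from edgeR).

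**Figure D3:**
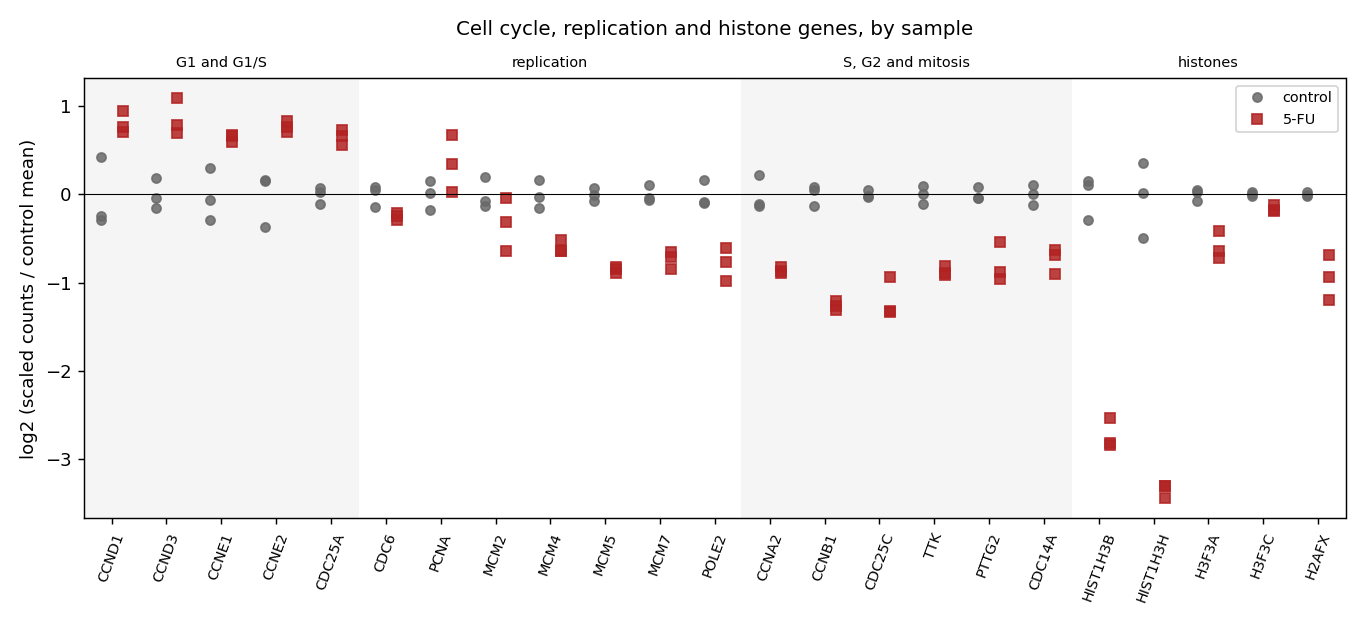
Log2 of scaled counts over the control mean for genes of the cell cycle, replication and histones, by sample. Circles are the 3 control and squares the 3 5-FU samples, and the squares lie above 0 in the G1 and G1/S genes, below it in the S to mitosis genes and lowest in HIST1H3B and HIST1H3H.

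The deepest falls were those of the replication-dependent histone H3 genes, whose mRNAs are made in S phase and lack a poly(A) tail. HIST1H3H was at 32812, 25976 and 18150 scaled counts in control and at 2601, 2351 and 2584 in 5-FU. HIST1H3B was at 19403, 20056 and 14772 in control and at 2553, 2521 and 3115 in 5-FU. The fold changes were 10.2 lower for HIST1H3H (log2 fold change -3.35, standard error 0.22, adjusted p = 6.16e-11) and 6.62 lower for HIST1H3B (-2.73, 0.23, 5.55e-09). Control values of HIST1H3H were spread from 18150 to 32812, whereas those of 5-FU were within 2351 to 2601. HIST1H3G, another gene of this class, was at 22.4 ± 6.90 in control and 26.1 ± 8.28 in 5-FU (SD, n = 3), close to background, and was not called. These genes code for nearly identical H3 proteins. Whether the HIST1H3H and HIST1H3B probes also count each other's transcripts was not tested, while the HIST1H3G probe stayed near background beside both. H3F3A, which codes for the replication-independent H3.3, fell 1.51-fold, a call lost after TMM (-0.41). H3F3C (-0.17), an H3.3-related gene whose probe may also capture transcripts of the other H3.3 genes, was not called. H2AFX, the histone variant that is phosphorylated at DNA breaks, fell 1.90-fold, and was not called within the first cartridge although its log2 fold change was almost equal there (-0.92 against -0.93). In total, 4 of 6 histone genes were called lower, with a median of -0.76.

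The stretches directly upstream of the transcription start of the 3 H3 genes are shown because the genes belong to the same class of S phase genes and differ in their counts. They are RefSeq promoters of GRCh38.p14 from 110 bases before the start to the last base before it, 5′ to 3′ on the strand of the gene. HIST1H3B is at chr6:26032100-26032209 on the minus strand, HIST1H3H at chr6:27809941-27810050 on the plus strand and HIST1H3G at chr6:26271414-26271523 on the minus strand. Capitals mark CCAAT, a motif bound by the factor NF-Y.
HIST1H3B: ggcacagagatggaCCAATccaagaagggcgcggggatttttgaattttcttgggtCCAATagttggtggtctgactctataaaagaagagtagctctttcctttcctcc
HIST1H3H: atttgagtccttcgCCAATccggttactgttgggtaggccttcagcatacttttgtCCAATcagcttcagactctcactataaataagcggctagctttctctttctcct
HIST1H3G: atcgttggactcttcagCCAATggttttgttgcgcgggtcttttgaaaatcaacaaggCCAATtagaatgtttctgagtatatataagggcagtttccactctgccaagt
Both genes that fell held CCAAT at bases -96 and -54 before the start, and HIST1H3G, counted near background, held it at -93 and -52. In windows of 300 bases around the start, searched on both strands, CCAAT was present in 35.7% of 27305 RefSeq promoters, in 20 of 53 promoters of genes called higher (37.7%) and in 27 of 59 of genes called lower (45.8%).

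The letters GCGGGAA, a form of the site of E2F factors that control S phase genes, were present on either strand in 6.56% of all promoters, in 10 of 59 promoters of genes called lower (16.9%) and in 2 of 53 of genes called higher (3.77%). In promoters of genes not called the share was 7.80%. The letters TTTGAA, a form of a cell cycle element, were present in 15.4% of all promoters, 11.9% of those of genes called lower, 5.66% of those of genes called higher and 11.2% of those of genes not called. These shares are a description of the letters, and genes with a shared promoter program are not independent. The lower genes with the motif include CDC25C, MCM7, FANCC and the chromatin remodeler HELLS (log2 fold change -0.74 and -0.32 within the first cartridge, named after its values were seen). The calls of FANCC and HELLS were lost within the first cartridge and after TMM, and that of MCM7 after TMM. Each gene is shown by 40 bases with the motif or its reverse complement TTCCCGC in capitals.
CDC25C: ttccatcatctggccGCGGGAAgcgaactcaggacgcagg
MCM7: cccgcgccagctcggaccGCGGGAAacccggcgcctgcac
FANCC: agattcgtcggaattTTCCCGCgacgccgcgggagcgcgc
HELLS: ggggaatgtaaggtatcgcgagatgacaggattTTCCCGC
The stretches are at chr5:138338501-138338540, chr7:100101563-100101602 and chr9:95317730-95317769 on the minus strand and at chr10:94545748-94545787 on the plus strand. The p53 site was searched as a pair of decamers with no spacer or a short one, and with at most 1 mismatch in each. It was present in 1.85% of all promoters, 1 of 53 of genes called higher and 2 of 59 of genes called lower. The window leaves out introns and distant sites.

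DNA repair genes were called in both directions. For repair of mismatches and damaged bases, 3 of 10 genes were called lower and none higher (median -0.47). MSH6, which recognizes mismatches, was at 510.2, 591 and 657 scaled counts in control and at 299, 310.0 and 353 in 5-FU. It fell 1.83-fold without overlap. NTHL1, a glycosylase that removes oxidized pyrimidines, fell 1.86-fold. For breaks and crosslinks, 2 of 21 genes were called higher and 3 lower (median -0.34), near the shares among all genes. The lower calls of this list were lost within the first cartridge. For nucleotide excision repair, 2 of 5 genes, DDB2 among them, were called higher and 1 lower (median 0.07). Within the first cartridge the median of that list was -0.30, and its calls other than that of DDB2 were lost. XRCC4, the partner of DNA ligase IV in end joining, was at 970.3, 821 and 810.1 in control and at 1614, 1511 and 1611 in 5-FU, which is 1.82-fold higher. FANCG, of the same core complex as FANCC, rose 1.71-fold, while FANCC was called lower. The FANCC call was lost after TMM and within the first cartridge, and the FANCG call with the first cartridge fitted alone.

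Of 7 laminin genes, 4 were called higher and none lower (median 1.06). LAMA3 and LAMB3 code for chains of laminin-332, the laminin of the epithelial basement membrane. LAMA3 was at 43.2, 30.2 and 33.6 scaled counts in control, of which only replicate 1 was above background, and at 332, 362 and 309.9 in 5-FU. LAMB3 was at 77.8, 78.6 and 106 in control and at 679, 677 and 610.2 in 5-FU. Both were among the largest rises of the panel, at 9.40-fold and 7.50-fold. LAMA5, a chain of other basement membrane laminins, rose 2.92-fold.

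Of 11 integrins, 4 were called higher and none lower, while the median of the list was -0.54 with all controls and 0.52 within the first cartridge. Only 6 of the 11 were above background in all samples of a group, and the median of those 6 was 0.80. ITGA6 and ITGB4 form the laminin receptor of hemidesmosomes, and ITGA3 is part of another receptor for laminin-332. ITGB4 was at 685, 707 and 1321 scaled counts in control and at 2097, 1994 and 1954 in 5-FU. ITGA3 was at 1105, 1075 and 1662 in control and at 2872, 2939 and 2812 in 5-FU. Control replicate 3 was the highest control sample in both, but below every 5-FU sample, and the folds were 2.23 and 2.24, with 1.96 for ITGA6. ITGA2, a collagen receptor subunit, was called at 1.55-fold although its groups overlapped, and its call was lost within the first cartridge (0.87) and in 6 of the 16 alternatives, over which the log2 fold change ran from 0.37 to 1.10. It was called when the first cartridge was fitted alone. PLAU, the urokinase that activates plasminogen at the cell surface, was in none of the lists and is named after its values were seen, with 566, 449 and 889 in control and 2255, 2244 and 2031 in 5-FU.

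**Figure D4:**
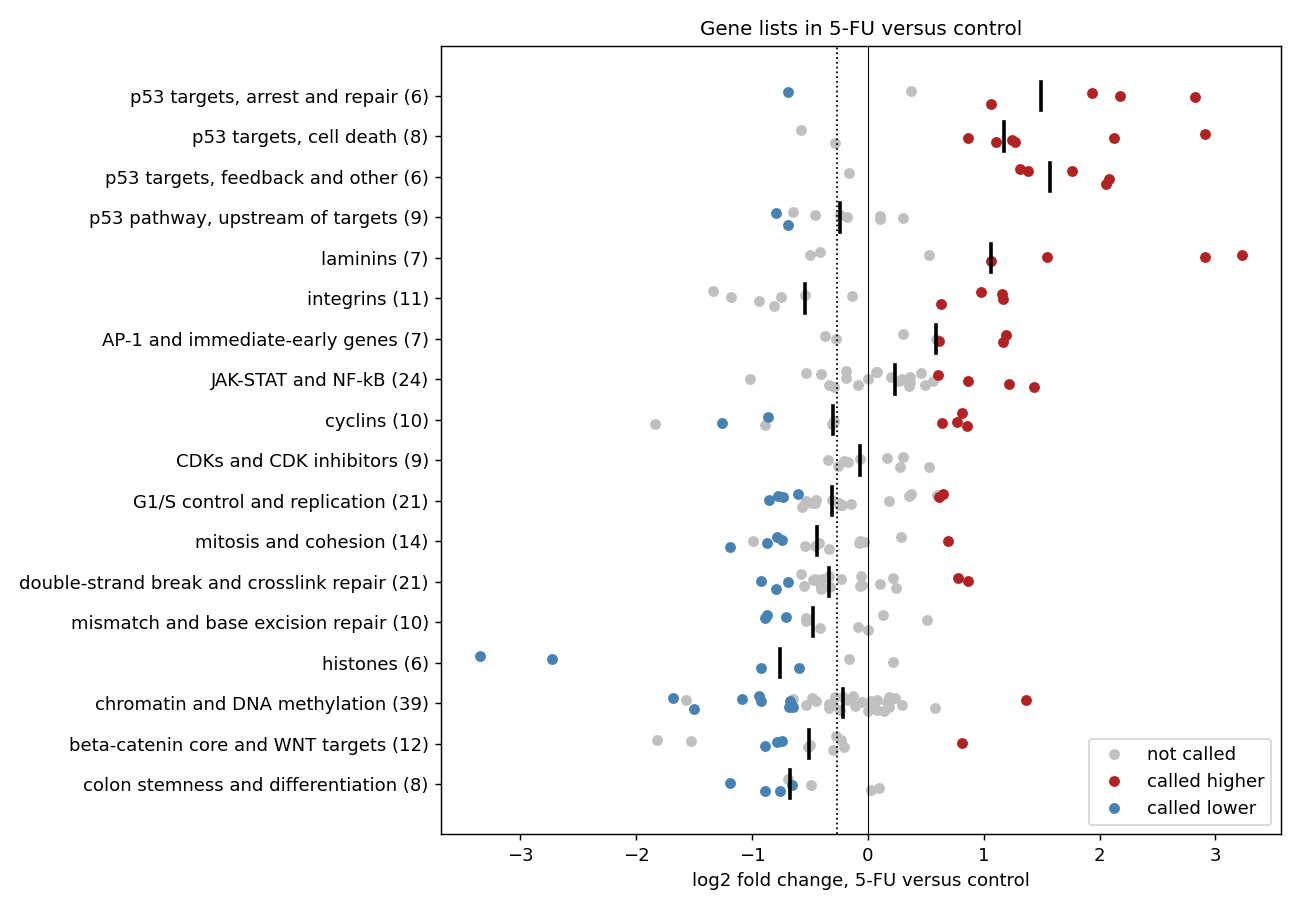
Log2 fold change of 5-FU versus control for each gene in 18 lists, with the number of genes in parentheses. Red points were called higher, blue points lower and gray points not called, black bars are list medians and the dotted line is the median of all 730 genes (-0.27).

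Growth factor signaling lists held calls in both directions, several of them near the 10.1% called each way among all genes. In the ERK feedback and ERK-induced list, 4 of 15 were called higher and 1 lower (median 0.02). DUSP5, a nuclear phosphatase that inactivates ERK, was at 1358, 1054 and 1190 scaled counts in control and at 4862, 4641 and 4819 in 5-FU, a 3.98-fold rise. DUSP6, its cytoplasmic counterpart, was at 2274, 1453 and 2533 in control and at 2172, 2119 and 2031 in 5-FU, with overlapping groups. These ERK phosphatases thus differed in their change, at log2 fold changes of 1.99 and 0.02. ETV1, an ETS factor, was at 320.0, 392 and 561 in control and at 177, 169 and 178 in 5-FU, a 2.43-fold fall. FOSL1, a FOS-family partner in AP-1, rose 2.24-fold and JUN rose 2.29-fold, and with GADD45B they gave 3 of 7 AP-1 and immediate-early genes called higher (median 0.58). FOS (-0.37) was not called, and GADD45B (0.61) was lost within the first cartridge (0.23).

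In the RAS-ERK core, 3 of 25 genes were called higher and 2 lower (median -0.23), near the shares among all genes. HRAS rose 1.96-fold, from 216, 248 and 200.0 scaled counts to 403, 442 and 463. SHC1, an adaptor of receptor tyrosine kinases, rose 1.75-fold. MAPK3, which codes for ERK1, was called lower (-0.71) but had overlapping groups and was at -0.05 within the first cartridge. RASAL1, a GTPase-activating protein for RAS, was called higher (1.28), but not within the first cartridge (0.65), and in control it was above background in 1 sample only.

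Among 41 growth factors, 4 were called higher and 4 lower (median -0.41), near the shares among all genes. KITLG, which codes for stem cell factor, was among the most abundant, at 11297, 12469 and 13772 scaled counts in control and 4914, 4602 and 4739 in 5-FU, a 2.63-fold fall without overlap. VEGFA, the angiogenic factor, fell 1.53-fold and FGF19 fell 1.60-fold, and both calls were lost after TMM (-0.42 and -0.48). PDGFA (0.65), PGF (0.93), EFNA1 (0.76) and FGF18 (1.12) were called higher with means of at most 104 scaled counts, and none was called within the first cartridge. EFNA2 was called lower (-0.69) and was at 0.05 within the first cartridge. Of the EGFR family and its ligands none of 3 was called, with EGFR at 0.39 and ERBB2 at -0.49.

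In the list of PI3K, AKT and mTOR genes, 2 of 21 were called higher and 3 lower (median -0.06), near the shares among all genes. DDIT4, a stress-induced inhibitor of mTORC1, was at 655, 493 and 398 scaled counts in control and at 186, 233 and 288 in 5-FU, a 2.19-fold fall. EIF4EBP1, the translation repressor that mTORC1 phosphorylates, fell 2.07-fold. PIK3R2 (0.87) and the kinase STK11 (0.84) were called higher, and within the first cartridge neither was (0.43 and 0.48). GSK3B was called lower (-0.79) and was at -0.05 within the first cartridge. In the stress kinase list, 4 of 23 were called higher and 2 lower (median 0.01). MAP3K12, a kinase above JNK, rose 2.30-fold. DDIT3, the factor CHOP of the unfolded protein response, was at 1017, 1048 and 618 in control and at 488, 434 and 448 in 5-FU, a 1.96-fold fall, so control replicate 3 stood apart from the other control samples but not among those of 5-FU.

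JAK-STAT and NF-kB genes gave 4 of 24 called higher and none lower (median 0.24). STAT3 was at 449.7, 337 and 385 scaled counts in control and at 913, 883 and 928 in 5-FU, and SOCS1, a feedback inhibitor of JAK kinases, at 27.7, 40.8 and 63.9 against 117, 110.4 and 132. The folds were 2.33 and 2.71. TNFAIP3 (0.86, above background in 2 control samples) and NFKBIZ (0.61), both regulators of NF-kB, were called higher and lost within the first cartridge (0.87 and 0.49). Of 54 interleukins, cytokines and receptors, 2 were called higher and 1 lower (median -0.59, and 0.05 for the 13 above background). LIF was called higher (0.79), but not within the first cartridge (0.41). PRDM1, a transcriptional repressor that is in none of the lists, was at 29.4, 22.7 and 25.2 in control, where only replicate 1 was above background, and at 116, 110.4 and 129 in 5-FU, a 4.60-fold rise.

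WNT, Notch and differentiation genes showed scattered calls. Of 13 WNT ligands, WNT7B was called higher (3.08-fold, from 24.2, 49.9 and 26.9 scaled counts to 94.0, 119.7 and 103, with control replicate 3 under background) and WNT16 lower (-0.73, and -0.41 within the first cartridge). In the β-catenin list 1 of 12 was called higher and 3 lower (median -0.51). AXIN2, a target and inhibitor of the pathway, was at 98.6, 86.2 and 124 in control and at 57.4, 43.9 and 65.3 in 5-FU, a 1.85-fold fall that was not called within the first cartridge at nearly the same size (-0.83). CTNNB1, which codes for β-catenin, was at -0.50, under the fold threshold. In the colon stemness and differentiation list 4 of 8 were called lower and none higher (median -0.67). ID1, an inhibitor of basic helix-loop-helix factors that BMP signals induce, was at 3061, 2679 and 3042 in control and at 1261, 1229 and 1358 in 5-FU, a 2.28-fold fall, and ID2 fell 1.69-fold, a call lost after TMM (-0.57). KLF4 was called lower (-0.66) and was at -0.29 within the first cartridge, and PROM1 (-0.49), which codes for CD133, was not called. Of 19 Notch genes, NOTCH1 and JAG1 (0.60) were called higher and none lower, JAG1 not within the first cartridge (0.58), and the target HES1 was at -0.61 without passing the test (adjusted p = 0.0977 from edgeR).

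Chromatin and DNA methylation genes gave 1 call higher and 9 lower of 39 (median -0.21). IDH1, the cytosolic isocitrate dehydrogenase, was at 242, 358 and 508 scaled counts in control and at 103, 112 and 131 in 5-FU. PHF6, a chromatin-binding protein of the nucleolus, was at 251, 509 and 545 in control and at 119.7, 142 and 202 in 5-FU. In both genes control replicate 1 was the lowest control sample and still above the 5-FU samples, and the log2 fold changes of -1.69 and -1.50 were -1.08 and -0.70 within the first cartridge. EZH2, a methyltransferase of polycomb complexes, fell 1.60-fold, a call lost after TMM (-0.48), and ARID1B, a subunit of the SWI/SNF remodeler, fell 1.92-fold. HDAC4 (-1.09) and HDAC11 (-0.92) were at -0.35 and 0.14 within the first cartridge, where control replicate 1 had 74.4 and 70.9 scaled counts against 104 to 210.1 in the other control samples. NPM1, a nucleolar chaperone, fell 2.39-fold, and NASP, a chaperone of histones that is in none of the lists, was at 121, 125 and 143 in control and at 35.4, 41.2 and 68.1 in 5-FU, a 2.70-fold fall.

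In the list of protein kinases A and C, calcineurin and phospholipases, 4 of 52 were called lower and none higher (median -0.37). PRKACB, a catalytic subunit of protein kinase A, fell 1.91-fold, a call lost with DESeq2. The calcineurin subunit PPP3CB (-0.67) and the phospholipase PLA2G4A (-0.65) were not called after TMM (-0.48 and -0.45) or within the first cartridge (-0.70 and -0.39). Of 32 TGF-beta, activin and BMP genes 1 was called higher and 2 lower (median -0.30), with SMAD4 at 0.13. Of 25 collagens and matrix glycoproteins 1 was called higher and 1 lower (median -0.07), and the lower one, COL5A1 (-1.60), was above background in 1 control sample only and at 0.54 within the first cartridge.

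Markers of the labelled cell type were present in both groups. Of 10 colon epithelial and carcinoma genes 9 were above background in all 3 samples of each group, and their sum over all 10 was 5240 to 6842 scaled counts in control and 16480 to 17507 in 5-FU, a sum that includes SFN, LAMB3 and EPHA2. Of 9 fibroblast genes none was above background in all control samples and 3 were in 5-FU, with sums of 152 to 232 and 148 to 203, and COL1A2, COL3A1, PDGFRA and PDGFRB were above it in no sample. The background was higher in control replicates 2 and 3 than in 5-FU, so numbers of genes above it are not comparable between groups. Of 13 leukocyte genes, CD40, SYK, LAT and RAC2 were above background in all control samples, and PIK3CG with them in all 5-FU samples. The 13 genes summed to 626 to 672 in control and 811 to 953 in 5-FU, and RAC2 was itself called higher. CSF1R, FLT3, IL2RB and PRKCB were above background in no sample. Equal amounts of RNA were assayed, so that fewer cells in a stage of the cycle and less RNA per cell cannot be told apart in any of these values.

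**Figure D5:**
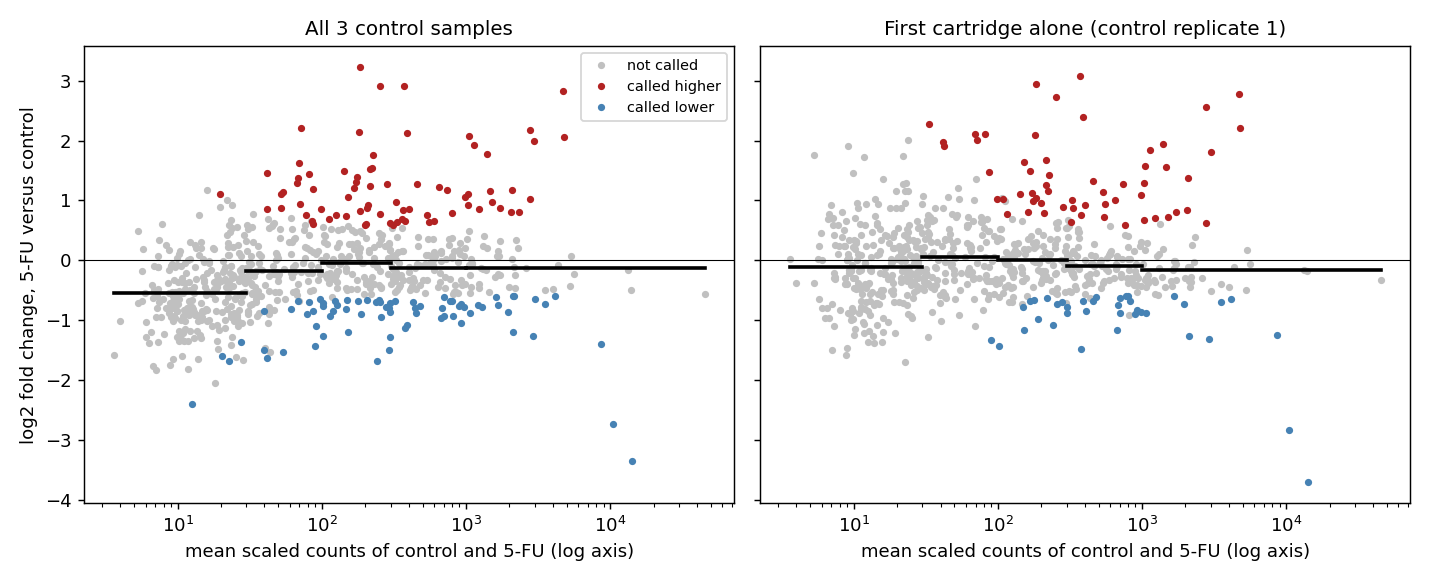
Log2 fold change of 5-FU versus control against the mean scaled counts of both groups (log axis). The left panel has all 3 control samples, and the right panel is the fit of the samples of the first cartridge alone. Red points were called higher, blue points lower, gray points not called, and black bars are medians within ranges of the mean, with genes under 30 scaled counts at -0.55 on the left.

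A second contrast set 5-FU against the 3 TQ samples, which shared the first cartridge with it and 24 h of exposure, while compound and dose differed. In it 105 genes (14.4%) were higher and 23 (3.15%) lower in 5-FU, and the split was 70 and 60 after TMM and 59 and 65 with DESeq2, so its balance depended on the scaling. The contrasts with control and with TQ share the 5-FU samples, and their values are set side by side without a measure of likeness. For CDKN1A, at 526, 536 and 496 scaled counts in TQ, the log2 fold change was 3.13 over TQ and 2.18 over control. It was 2.39 over TQ and 1.93 over control for DDB2, 1.84 and 2.05 for MDM2, and 2.36 and 2.12 for FAS. LAMA3, at 22.0, 22.2 and 23.9 in TQ, was 3.88 over TQ and 3.23 over control, and ITGB4 was 2.10 and 1.16. For these 6 genes the 5-FU samples thus lay above both other groups. Other genes called higher against control differed less from TQ. GADD45A was not called against TQ (0.52), and DUSP5 was called (0.66), but not after TMM (0.40).

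The histone genes HIST1H3H and HIST1H3B were lower in 5-FU in both contrasts, with HIST1H3H at 23424, 21537 and 21102 scaled counts in TQ (log2 fold change -3.13) and HIST1H3B at 11171, 9823 and 10254 (-1.93). The other 4 histone genes were not called against TQ, at 0.10 for H2AFX, 0.13 for H3F3A, 0.14 for H3F3C and 0.31 for HIST1H3G, although H2AFX and H3F3A were called lower against control. After TMM these values against TQ were -0.16, -0.14, -0.12 and 0.07, again not called. Of the cell cycle genes, CCNB1 was called lower over TQ as over control (-1.09 and -1.26). CCNA2 (-0.57), CDC25C (-0.39), CCND1 (0.04), CCND3 (0.47) and CDC25A (0.28), all called against control, were not called against TQ, except that CCNA2 and CDC25C were after TMM (-0.84 and -0.68). DDIT4, which was called lower against control, was called higher against TQ (0.86), but not after TMM (0.57). KITLG did not pass the test against TQ (-0.13, adjusted p = 0.43 from edgeR), with 5410, 5353 and 4833 scaled counts in TQ, close to the 5-FU samples. CCNE1 was at -0.15 over TQ, where it was at 717, 752 and 776. FOS was at 749, 821 and 894 in TQ, above the 80.6, 102 and 109.8 of 5-FU (-3.08), and DDIT3 was at 1719, 1622 and 1328 (-1.77). GADD45B, at 774, 585 and 662 in TQ, was likewise lower in 5-FU (-1.44), and THBS1 was lower by 0.76 on the log2 scale.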

How the data were processed

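Per the labels, 50 ng of total RNA per sample was assayed. The authors deposited raw counts per gene and a signal table normalized in nSolver 3.0, in which 100% of the values in each sample came within 1% of a count less the negative probes' geometric mean, multiplied by 1 factor per sample. Another deposited table of the authors' own fold changes and p-values was not used.

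Here the raw counts of all 15 samples were scaled to the 40 housekeeping genes (log2 ratio of 5-FU over control from -0.59 to 0.60, median 0.01) and fitted in edgeR 4.0.16 (R 4.3.3) with the 5 groups as terms and no filter. The p-values rest on 3 samples a group. Alternatives used DESeq2 1.42.0 and limma 3.58.1 (log2 of the authors' normalized values plus a pseudocount of 1 or 10), TMM, a filter, a floor of 20 counts, blocks and left-out samples. The first cartridge alone was added after the data were seen. Tested on simulated data for 5-FU versus control with 730 genes, the fit recovered 72% of 50 genes raised 2-fold, 64% of 50 lowered 2-fold and called 0.566% of 530 unchanged genes. The simulated counts held no cartridge difference, no unequal background and no scaling error. These shares are therefore not error rates of the real comparison.

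Named genes were the 12 highest and 12 lowest called genes with at least 50 raw counts in the higher group and no overlap, called members of gene lists, up to 4 uncalled members per list with the highest control mean, and MYC and PCNA. Genes withheld here are counted in lists but not reported. The members and lists were chosen with earlier results of these data known. All 730 genes matched RefSeq (705 by accession), and 548 had a promoter of 300 bases, credited to RefSeq, GRCh38.p14. The genome build of the probes is not given in the sources used here.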

Additional observations from a re-analysis of the deposited data

How the results depend on the processing

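Of the 74 genes called higher and 74 lower in 5-FU against control, TMM gave 104 and 41, DESeq2 102 and 35, the cartridge as a block 59 and 39, and the first cartridge alone, chosen after the data were seen, 58 and 38. The first cartridge holds 1 control sample, which is assumed to vary like the other groups. Scaling to the positive control probes gave 4 higher and 1 lower. With 1 sample left out, 62 (without 5-FU replicate 3) to 79 (without control replicate 3) were higher and 54 (without control replicate 3) to 104 (without control replicate 1) lower. Against TQ, where 105 were higher and 23 lower, DESeq2 gave 59 and 65, TMM 70 and 60, and the positive control probes 0 and 9 in edgeR (3 and 114 at the same fold and an unadjusted p under 0.05), while leaving out 1 sample gave 86 to 107 and 22 to 27. The cause of these shifts was not tested. The replicate number as a block gave 72 and 70 against control and 102 and 23 against TQ, and same-numbered control and 5-FU samples correlated at 0.16, 0.00 and 0.05 in their deviations, so the numbers were not taken as pairs.

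Of 2087 values of 123 named genes under alternatives, 1784 kept direction and side of the threshold, 265 lost the call, 6 gained one and 32 changed sign. The scaling to the positive control probes accounts for 98 of the 265 lost calls. At least 1 of the fits without a single control or 5-FU sample ended the calls of CCNE1, COL5A1, EFNA1, EFNA2, FGF18, GADD45B, GSK3B, H3F3A, HDAC11, ITGA2, JAG1, KLF4, LIF, MAPK3, MCM4, NFKBIZ, PDGFA, PGF, PLA2G4A, PPP3CB, TNFAIP3, VEGFA and WNT16. The called genes that changed sign were COL5A1 (0.54), EFNA2 (0.049 and 0.050) and HDAC11 (0.14) with the cartridge as a block and the first cartridge alone, and FGF18 with counts under 20 set to 20 (-0.089). The others were not called. CDK4 was 0.12 with TMM, 0.13 with DESeq2 and 0.33 with the positive control probes, and H3F3C 0.026, 0.036 and 0.17. With the positive control probes CDC6 was 0.11 and MYC 0.11, and with the floor of 20 counts HIST1H3G was -0.20. DUSP6 was -0.014 with limma at both pseudocounts and -0.11 with the block and the first cartridge alone. IGFBP3 was 0.016 with TMM and 0.020 with DESeq2, 0.80 and 0.40 with limma, and 0.40 with the block and the first cartridge alone. With 1 sample left out, CDK4 ranged from -0.15 to 0.031, DUSP6 from -0.19 to 0.18 and IGFBP3 from -0.63 to 0.23.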
